A study of Mus musculus with 5 samples.

Results

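Slc2a2, Kcnj11, Abcc8, Cacna1c, Cacna1d and Trpm5 encode the transporter and the ion channels through which an islet beta cell turns blood glucose into an electrical signal. These 6 genes were chosen by symbol, and each matched 1 of the 32285 gene rows in each of the 5 count matrices. The values come from single-cell RNA sequencing (10x Genomics 3′ v3 chemistry, which counts unique molecular identifiers, UMIs, from the 3′ end of transcripts) of hand-picked, trypsin-dissociated pancreatic islets, with 1 library per mouse. All 5 were NOD.SCID mice of NOD.Cg-Prkdcscid/J stock, whose Prkdc mutation leaves them without mature T and B cells in both diet groups. Chow mice 1, 2 and 3 were fed a standard diet and were 8, 10 and 10 weeks old. HC mice 1 and 2 were fed 20% HC, a diet of hydrolyzed casein, and were 7 and 9 weeks old. The series text gives the range of ages as starting at 8 weeks. The library of HC mouse 2 carries a title that calls the mouse chow-fed, while its diet label and the stated count of 2 HC mice give HC, so the mouse was counted as HC here, and a fit that follows the title is among the alternatives.

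In the rodent beta cell glucose enters through GLUT2, the low-affinity facilitative transporter encoded by Slc2a2. Its metabolism raises the ratio of ATP to ADP, which closes the ATP-sensitive potassium (KATP) channel. Kcnj11 encodes the inward-rectifier pore of that channel and Abcc8 encodes SUR1, the regulatory subunit that sulfonylurea drugs bind. With the channel closed the membrane depolarises, and L-type voltage-gated calcium channels, whose pores are encoded by Cacna1c and Cacna1d, let in the calcium that triggers release of insulin granules. Trpm5 encodes a cation channel that calcium itself opens and that passes sodium and potassium, a depolarising current known in taste cells as well as in beta cells. KATP channels are also found in alpha and delta cells.

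The genes lie on 4 chromosomes of the mouse assembly GRCm38 in the GENCODE M21 annotation. Slc2a2 (ENSMUSG00000027690) spans chr3:28697903-28731359 on the plus strand. Abcc8 (ENSMUSG00000040136, chr7:46104523-46180033) and Kcnj11 (ENSMUSG00000096146, chr7:46093953-46100764) are neighbours on the minus strand, with 3758 bases between the end of Abcc8 and the start of Kcnj11. Trpm5 (ENSMUSG00000009246) lies elsewhere on the minus strand of the same chromosome, at chr7:143069153-143094642. The calcium channel genes are the longest, Cacna1c (ENSMUSG00000051331) at 609.2 kb, chr6:118587240-119196418, and Cacna1d (ENSMUSG00000015968) at 451.5 kb, chr14:30039939-30491455, both on the minus strand. Both calcium channel genes and Abcc8 each overlap 1 annotated predicted gene on the same strand (Gm18981, Gm18072 and Gm45487), so a read there could be assigned to either or to neither.

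Slc2a2 and Trpm5 shared a profile across cell types that the other 4 genes did not have, so the sequence at their starts is printed here. Each runs 5′ to 3′ on the strand of the gene over 300 bases, most of them before the annotated start, as given by RefSeq for GRCm38.p6. Capitals mark the E-box CANNTG and the homeodomain core TAAT (searched on both strands, so it also reads ATTA). No match of one overlapped a match of the other.
Slc2a2, chr3:28697653-28697952, plus strand: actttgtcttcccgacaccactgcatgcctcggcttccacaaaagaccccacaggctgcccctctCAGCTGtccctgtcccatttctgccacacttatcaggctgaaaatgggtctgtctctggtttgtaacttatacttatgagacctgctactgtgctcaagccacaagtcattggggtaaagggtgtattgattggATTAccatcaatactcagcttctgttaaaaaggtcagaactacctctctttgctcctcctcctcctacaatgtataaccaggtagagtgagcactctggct
Trpm5, chr7:143094593-143094892, minus strand: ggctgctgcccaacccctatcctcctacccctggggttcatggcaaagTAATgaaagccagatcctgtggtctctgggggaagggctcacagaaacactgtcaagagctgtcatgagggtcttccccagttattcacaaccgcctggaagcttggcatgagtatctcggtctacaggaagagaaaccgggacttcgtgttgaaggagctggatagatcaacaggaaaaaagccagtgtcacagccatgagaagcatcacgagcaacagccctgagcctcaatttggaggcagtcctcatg
The Slc2a2 window held 1 E-box and 1 TAAT core, and the Trpm5 window held 1 TAAT core and 0 E-boxes. Of 32851 promoter windows of the same length 72.3% held an E-box and 58.0% a TAAT core, so these matches are common. The Slc2a2 window held 2 CG pairs, below the lower quartile of 3 over all windows, and the Trpm5 window held 5, between that quartile and the median of 7. By contrast 1 of the 3 annotated starts of Cacna1c held 57 CG pairs and 1 of the 2 starts of Cacna1d held 63, and the other starts of both genes held 3 to 7. Starts were listed for 4 of the 6 genes.

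The libraries held 28722244 to 39624978 UMIs, and 3656 to 5122 cells per mouse passed the filters. Any 2 libraries shared 4 to 14 cell barcodes. Cell types were rebuilt by clustering without the 6 genes and named from marker genes, so "beta cells" here means beta-like clusters, each with Ins1, Ins2, Mafa and G6pc2 among its leading genes. Alpha-like clusters were led by Gcg and Ttr, and delta-like ones by Sst, Rbp4 and Hhex. The Ppy-led cells were a sub-cluster of 403 cells led by Ppy and Pyy. It was split from an unnamed cluster of 1649 cells that also had Ins1, Ins2 and Iapp among its leading genes. Chow mice 1, 2 and 3 gave 1756, 2659 and 2554 beta cells, and HC mice 1 and 2 gave 2076 and 1785. There were 759 to 1312 alpha and 385 to 510 delta cells per mouse, and 30 to 275 ductal, stromal, macrophage or endothelial cells. The 2 libraries whose names begin with FUN (chow 1, HC 1) had a lower insulin share in beta cells, 61.4% to 62.2% of UMIs, than the 3 that begin with SKY, 68.2% to 69.2%. What this prefix stands for is not stated in the labels.

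Slc2a2 was highest in beta cells. Its level there, in UMIs per 1000000 UMIs summed over the cells of a type in a mouse (CPM), was 321, 266 and 290 in chow mice 1, 2 and 3, and 322 and 246 in HC mice 1 and 2. The mean was 289 ± 33.6 (SD, n = 5), and 85.6% ± 2.25 of beta cells held at least 1 UMI. The 5 beta levels lay above every level in every other type. In alpha cells Slc2a2 averaged 6.91 ± 2.16 CPM (range 3.14 to 8.37), which is 41.8-fold lower than in beta cells, and in delta cells 15.8 ± 11.97 (3.62 to 32.5). These cell types are clusters of the same cells, so levels between them are described and not tested.

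Free RNA from lysed cells and droplets with 2 cells can carry beta transcripts into other types. To set a scale for this, the level that each type would show was computed per mouse. Its insulin, glucagon and somatostatin UMIs were assigned to beta, alpha and delta cells, and member UMIs were added at the ratio found in those cells. The hormone of the type itself was left out, and for Ppy-led cells glucagon was left out as well. For Slc2a2 in alpha cells the computed level averaged 5.93 and the measured one 6.91. The measured level was above the one computed for the same mouse in 5 of 5 mice. In delta cells measured and computed levels ran together: HC mouse 1 had the largest insulin share (5.98%) and measured 32.5 against a computed 31.5, while HC mouse 2 had the smallest (0.858%) and measured 3.62 against 3.11. Macrophages (81.4 measured, 88.7 computed) and stromal cells (90.7 and 107) did not exceed the computed level on average. In alpha, delta, macrophage and stromal cells the mean Slc2a2 level was thus close to or below the computed one.

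Ductal cells stood apart in Slc2a2. They held 174, 226 and 143 CPM in chow mice 1, 2 and 3 and 196 and 132 in HC mice 1 and 2, against a computed mean of 72.8. The measured level exceeded the computed one in 5 of 5 mice. In chow mouse 3, with an insulin share of 2.52% in ductal cells, the computed level was 10.9 and the measured one 143, and in HC mouse 2 (2.59%) they were 9.41 and 132. In chow mouse 2 (14.6%) they were 56.6 and 226, and in chow mouse 1 and HC mouse 1, where insulin took 26.0% and 28.6%, the computed levels of 135 and 152 came closer to the measured 174 and 196. In chow mouse 3 and HC mouse 2, the mice with least insulin in ductal cells, 42.9% (95% interval 27.7% to 59.0%, exact Clopper-Pearson) and 31.4% (22.7% to 41.2%) of ductal cells held an Slc2a2 UMI, intervals that cover counting error only. These values rest on 36 to 105 ductal cells and 29 to 104 UMIs per mouse. Ductal cells had leading genes Spp1, Clu and Krt18 and 3 of the fixed duct markers among the 10 leading genes. Trpm5 in the same cells measured 38.8 on average against a computed mean of 39.3, and exceeded the level computed for the same mouse in 3 of 5 mice.

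**Figure D1:**
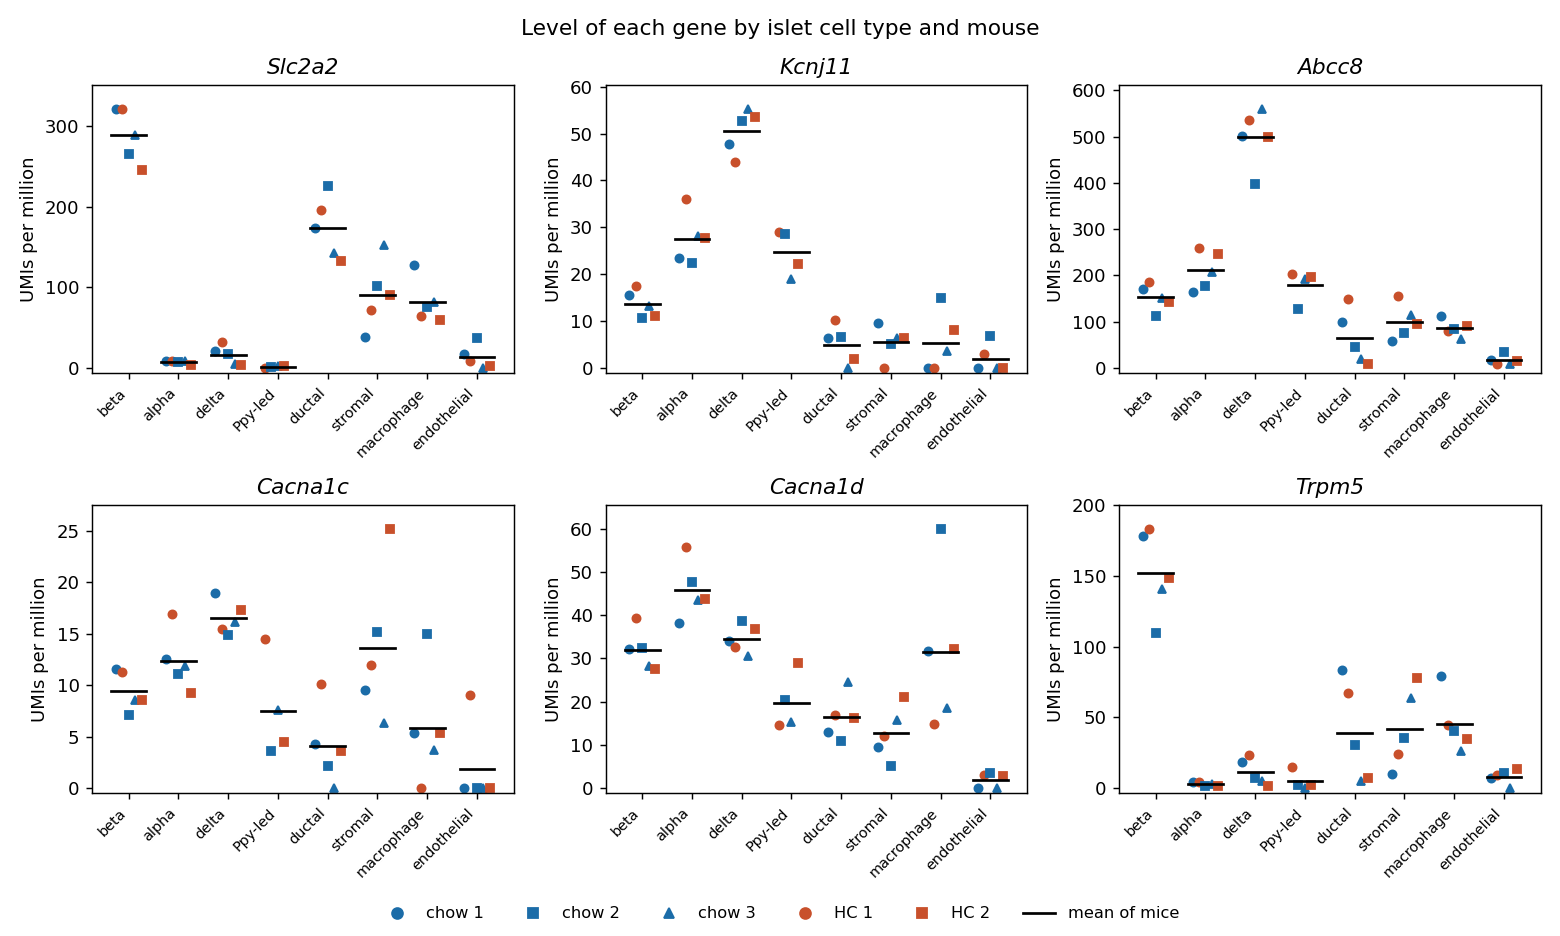
Level in CPM (linear vertical axes, which differ between panels) of the 6 genes in 8 cell groups, 1 point per mouse (blue chow, orange HC) with the mean as a bar. Slc2a2 and Trpm5 stand highest in beta cells, Abcc8 and Kcnj11 in delta cells, and Slc2a2 also stands at 132 to 226 in ductal cells.

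The KATP subunit genes had the opposite profile on this scale, with delta cells highest. Abcc8 measured 501, 397 and 561 CPM in delta cells of chow mice 1, 2 and 3 and 535 and 498 in HC mice 1 and 2, a mean of 498 ± 62.4 (SD, n = 5). Alpha cells averaged 211 ± 41.9 and beta cells 152 ± 28.0, so the delta level was 3.27-fold that of beta cells, and every delta level lay above every alpha and beta level. The alpha and Ppy-led levels (180 ± 35.1, 4 mice) overlapped, as did the Ppy-led and beta levels. Endothelial cells had the lowest mean, 17.1 ± 10.3.

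Kcnj11 followed the same order. Its level was 47.7, 52.7 and 55.3 CPM in delta cells of chow mice 1, 2 and 3 and 43.9 and 53.5 in HC mice 1 and 2. Alpha cells averaged 27.6 ± 5.37 and beta cells 13.6 ± 2.92, and neither range reached the delta range. In alpha and delta cells the computed carried-over level of both KATP genes was small against the measured one. In delta cells it was 9.04 against 498 for Abcc8 and 0.882 against 50.6 for Kcnj11. For Ppy-led cells the computed level left out glucagon, which took 3.23% to 29.2% of their UMIs. It therefore sets no scale there for KATP transcripts carried over from alpha cells. In macrophage, stromal and ductal cells the measured Kcnj11 levels of 4.98 to 5.45 were at or under the computed ones, 5.30 to 7.96.

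The ratio of the subunit genes to each other differed between cell types. In beta cells there were 10.97, 10.6 and 11.4 Abcc8 UMIs per Kcnj11 UMI in chow mice 1, 2 and 3 and 10.6 and 12.9 in HC mice 1 and 2. The ratio ranged from 6.98 to 8.88 in alpha cells, below every beta value, and from 7.53 to 12.2 in delta cells, which overlapped both. Ppy-led cells gave 4.46, 10.1 and 8.90 in chow mice 2 and 3 and HC mouse 2, from 10 to 24 Kcnj11 UMIs each. Since the assay counts 3′ ends, whose capture differs between genes, the ratio gives no number of protein subunits, and only its comparison across cells can be read.

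The L-type pore genes were detected at low levels in all endocrine types. Cacna1d was highest in alpha cells, at 38.2, 47.7 and 43.6 CPM in chow mice 1, 2 and 3 and 55.7 and 43.7 in HC mice 1 and 2. Delta cells averaged 34.5 ± 3.23 and beta cells 31.9 ± 4.75. These ranges overlapped in sequence, alpha with delta and delta with beta. Macrophages measured 31.5 ± 17.7 (computed 13.3, exceeded in 5 of 5 mice), from only 38 UMIs in all. Ductal cells measured 16.3 ± 5.25 from 30 UMIs, against a computed mean of 10.1. They exceeded the level computed for the same mouse in 3 of 5 mice. In chow mouse 3 and HC mouse 2 they measured 24.6 and 16.3 against a computed 3.04 and 1.85, from 5 and 9 UMIs.

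Cacna1c averaged 16.6 ± 1.61 CPM in delta, 12.3 ± 2.85 in alpha and 9.41 ± 1.92 in beta cells, with each range overlapping the next. Stromal cells measured 13.6 ± 7.23, above their computed 4.67 in 5 of 5 mice, but from 19 UMIs, of which 12 came from HC mouse 2. Cacna1c is also the calcium channel of smooth muscle. In beta cells the ratio of Cacna1d to Cacna1c UMIs was 2.78, 4.57 and 3.28 in chow mice 1, 2 and 3 and 3.50 and 3.20 in HC mice 1 and 2, and in delta cells it was 1.80 to 2.59, below every beta value.

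Trpm5 was highest in beta cells, like Slc2a2. It measured 178, 110 and 141 CPM in chow mice 1, 2 and 3 and 183 and 149 in HC mice 1 and 2, a mean of 152 ± 29.9 (SD, n = 5). Every beta level lay above every level elsewhere. Alpha cells averaged 2.71 ± 1.33, which is 56.2-fold lower, against a computed mean of 3.07. In 4 of 5 mice the alpha level was at or under the level computed for that mouse. Delta cells averaged 11.1 ± 9.38 against a computed mean of 7.79, and exceeded the level computed for the same mouse in 4 of 5 mice. Macrophages (44.96 measured, 45.8 computed) and stromal cells (42.0 and 55.6) did not exceed the computed level on average. Endothelial cells (7.89 and 3.97) exceeded it in 4 of 5 mice and Ppy-led cells (4.76 and 0.924) in 3 of 4, from 13 and 4 Trpm5 UMIs in all.

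**Figure D2:**
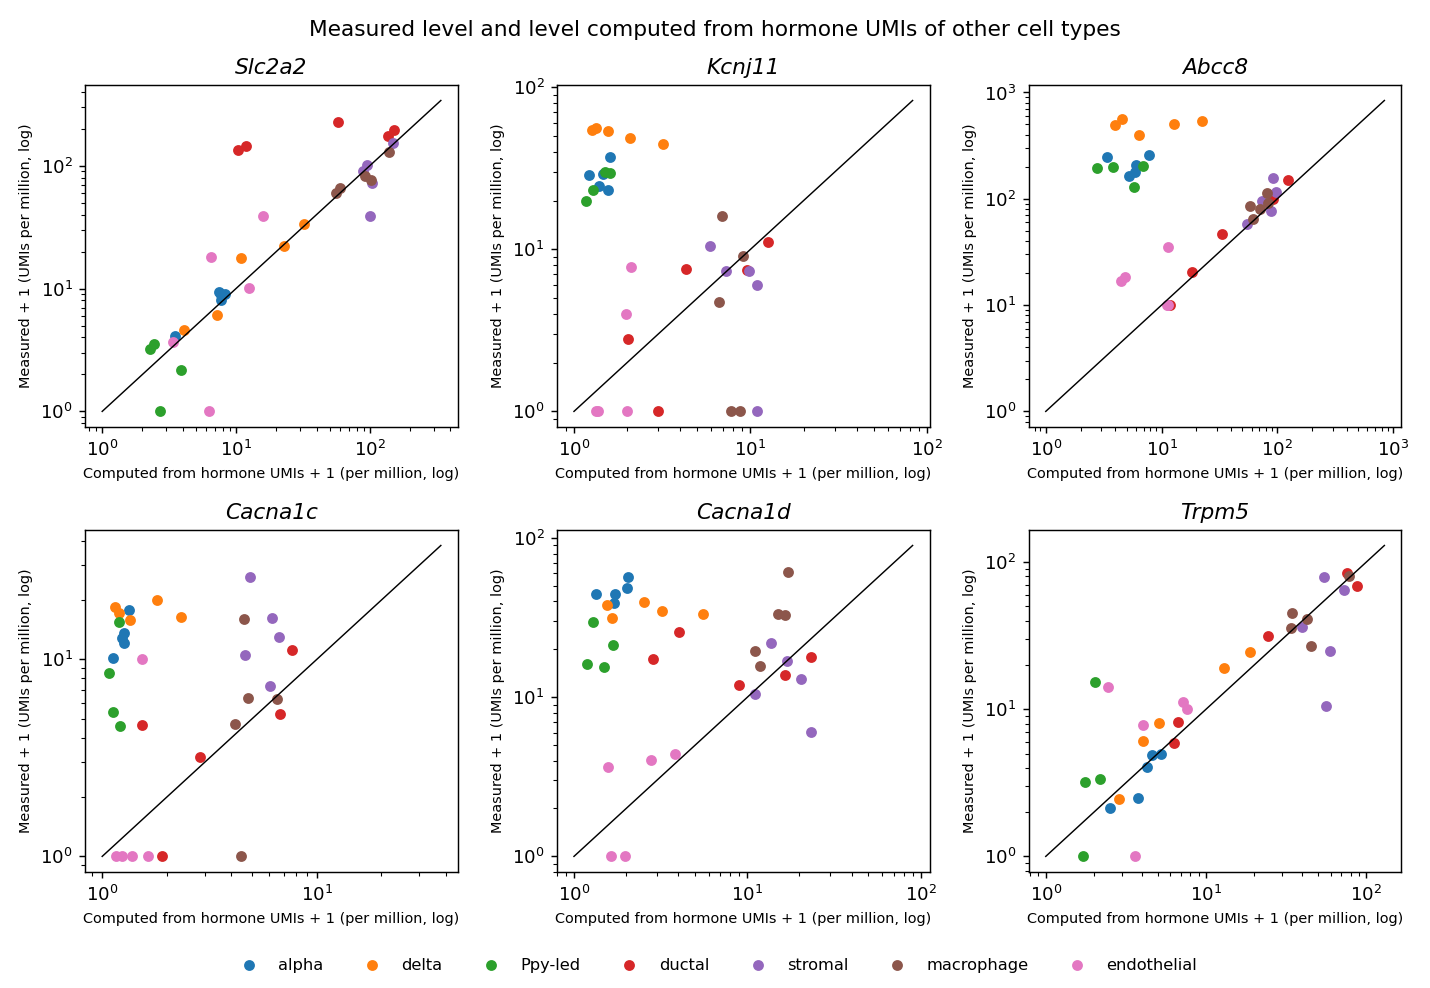
Measured level plus 1 (vertical) against the level plus 1 computed from hormone UMIs of other cell types (horizontal), in CPM on log axes, 1 point per cell group and mouse, with the line of equality. Points of Slc2a2 and Trpm5 scatter to both sides of the line, with the 5 ductal points of Slc2a2 above it, while alpha and delta points of Kcnj11, Abcc8, Cacna1c and Cacna1d lie far above it.

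The order among endocrine types depended on the scale for 4 of the genes. The hormone genes Ins1, Ins2, Iapp, Gcg, Sst, Ppy and Pyy took 64.9% to 72.2% of UMIs in beta cells, 43.5% to 46.9% in alpha cells and 29.3% to 30.8% in delta cells. Every other transcript of a beta cell is therefore diluted most when a level is given as CPM over all genes. With hormone UMIs left out, Cacna1d was highest in beta cells (104 ± 10.3 CPM) ahead of alpha (83.0 ± 10.2) and delta cells (49.4 ± 4.32). Cacna1c also moved to the top in beta cells, 30.3 ± 3.07 against 23.7 ± 2.14 in delta and 22.3 ± 4.99 in alpha cells. In both cases beta lay above alpha and delta in 5 of 5 mice.

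Abcc8 and Kcnj11 stayed highest in delta cells on that scale, but by less. Abcc8 was 713 ± 92.6 in delta, 492 ± 52.6 in beta and 382 ± 71.4 in alpha cells, so beta and alpha cells changed places. Kcnj11 was 72.4 ± 6.70, 43.7 ± 5.20 and 49.99 ± 9.27. Counted as UMIs per cell, which also reflects how much RNA a cell holds and how deeply it was read, delta and beta cells were nearly level: Abcc8 gave 1.37 ± 0.235 in delta, 1.37 ± 0.247 in beta and 0.902 ± 0.145 in alpha cells. Kcnj11 gave 0.139 ± 0.0182, 0.121 ± 0.0228 and 0.118 ± 0.0184, and these ranges overlapped. Slc2a2 and Trpm5 were highest in beta cells on all 3 scales, and counting them, 4 of the 6 genes were highest in beta cells without hormone UMIs and 4 per cell, against 2 as CPM over all genes. The median beta cell had 6391 to 9611 UMIs, the median alpha cell 3539 to 4713 and the median delta cell 2141 to 2907.

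**Figure D3:**
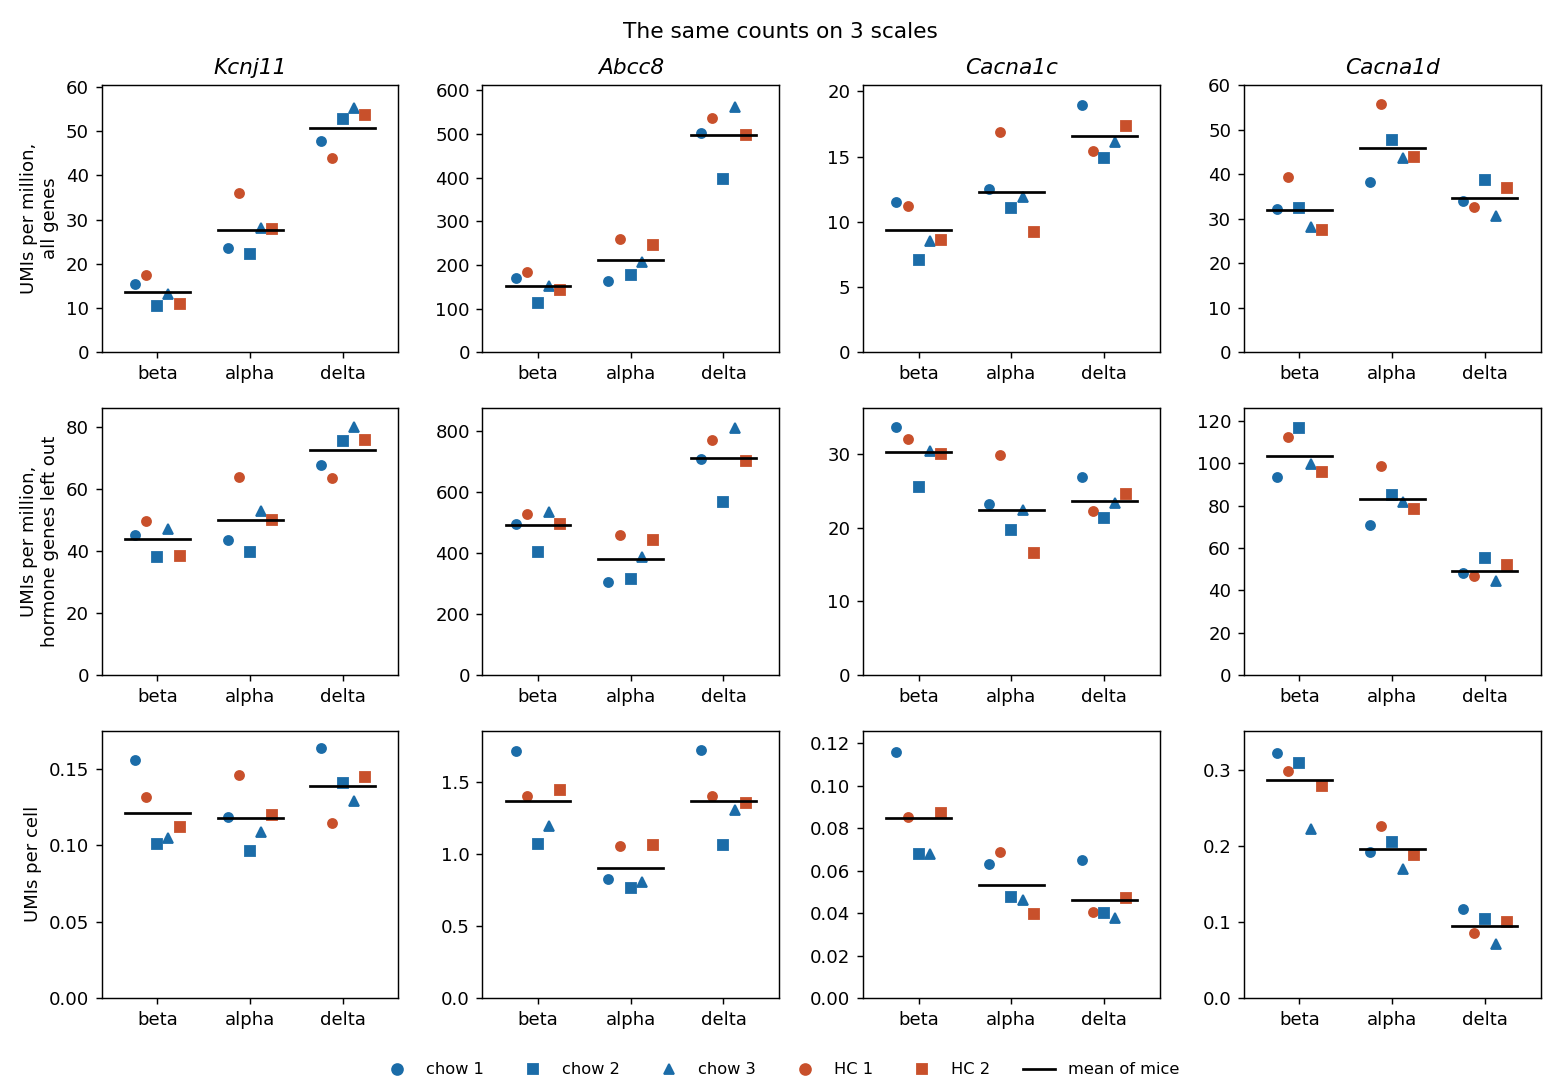
Kcnj11, Abcc8, Cacna1c and Cacna1d in beta, alpha and delta cells as CPM over all genes (top), CPM with the hormone genes left out (middle) and UMIs per cell (bottom), 1 point per mouse with the mean as a bar. Cacna1c and Cacna1d lie highest in beta cells in the middle and bottom rows but not in the top row.

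Across 35 sums of 7 cell types and 5 mice, the 6 genes fell into 2 profiles. Slc2a2 and Trpm5 had a Pearson correlation of 0.87 on the log2(CPM + 1) scale, Kcnj11 and Abcc8 had 0.78, and Kcnj11 or Abcc8 with either L-type gene had 0.65 to 0.74. Slc2a2 with Kcnj11 had -0.13 and with Abcc8 0.01. These are descriptions, because sums of 1 mouse share a library, and carried-over beta RNA is part of each. Among 8581 genes of sufficient level, the most like Slc2a2 were Sytl4 (0.89), which encodes a granule protein of the granuphilin type, and the insulin genes Ins1 and Ins2 (0.88 each). Trpm5 was most like Sytl4 (0.95), Mafa (0.93), a beta-cell transcription factor gene, and Prlr (0.92), the prolactin receptor gene. Abcc8 was most like A330076H08Rik (0.97), Resp18 (0.94), which encodes an endocrine secretory protein, and Fam183b (0.94). Kcnj11 was most like Scn9a (0.89), a voltage-gated sodium channel gene, Sult1d1 (0.88) and Tmem130 (0.88). Cacna1c was most like Pla2g2f (0.85), Grik5 (0.85) and B630019K06Rik (0.84). Cacna1d was most like H2-Q2 (0.90), an MHC class I gene with close paralogs, Lrrn1 (0.88) and Kif21a (0.88).

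Within beta cells the genes differed in how many cells showed them, which follows their UMI level. Cells were thinned to 2000 UMIs and shallower cells were left out. Per mouse this kept 1735 to 2646 beta and 276 to 400 delta cells, but only 21 to 55 macrophages and 4 to 73 endothelial cells. The shares of these shallow types thus describe their deeper cells. An Slc2a2 UMI was held by 43.4% ± 3.82 of beta cells (SD, n = 5 mice), against 11.3% ± 4.51 of macrophages and 2.24% ± 2.67 of endothelial cells, types taken as background. The shares for Abcc8 were 26.8% in beta cells, 34.5% in alpha cells and 60.7% in delta cells, with 13.9% in macrophages. Kcnj11 (2.83% of beta cells) and Cacna1c (1.99%) were at the level where most cells show none. Macrophages gave 1.27% and 1.048% for these genes, so single-cell presence of either says little.

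Few beta cells lacked all of these genes. Among beta cells of 5000 to 10000 UMIs, not thinned, 0.830% to 2.46% per mouse held no UMI of any of the 6, and at most 0.207% held all 6. The median cell held 3 of the 6 in chow mouse 1 and both HC mice, and 2 in chow mice 2 and 3. Kcnj11 and Abcc8 were found in the same cell 0.938 to 1.039 times as often as the product of their shares gives, and Cacna1c and Cacna1d 0.811 to 1.59 times, from 16 to 31 cells with both per mouse. Slc2a2 was found in too many of these cells for such a ratio to move far from 1.

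Beta cells were split within each mouse into 3 groups of like size by the share of insulin in their UMIs, and the genes were scaled to UMIs other than insulin. Slc2a2 was higher in the group with the highest insulin share than in the lowest in 5 of 5 mice, by 1.07- to 1.18-fold (means 879 ± 67.8 and 797 ± 61.2). Cacna1d was lower in 5 of 5 mice, at 0.787 to 0.984 of the lowest group (87.2 ± 12.6 and 99.2 ± 13.6). The SDs given are of levels between mice, while the groups were paired within each mouse. They therefore do not measure the spread of the differences. Abcc8, Kcnj11 and Cacna1c were lower in 4 of 5 mice, and Trpm5 was higher in 3 of 5. No test was made of these splits, since the groups come from the same counts.

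**Figure D4:**
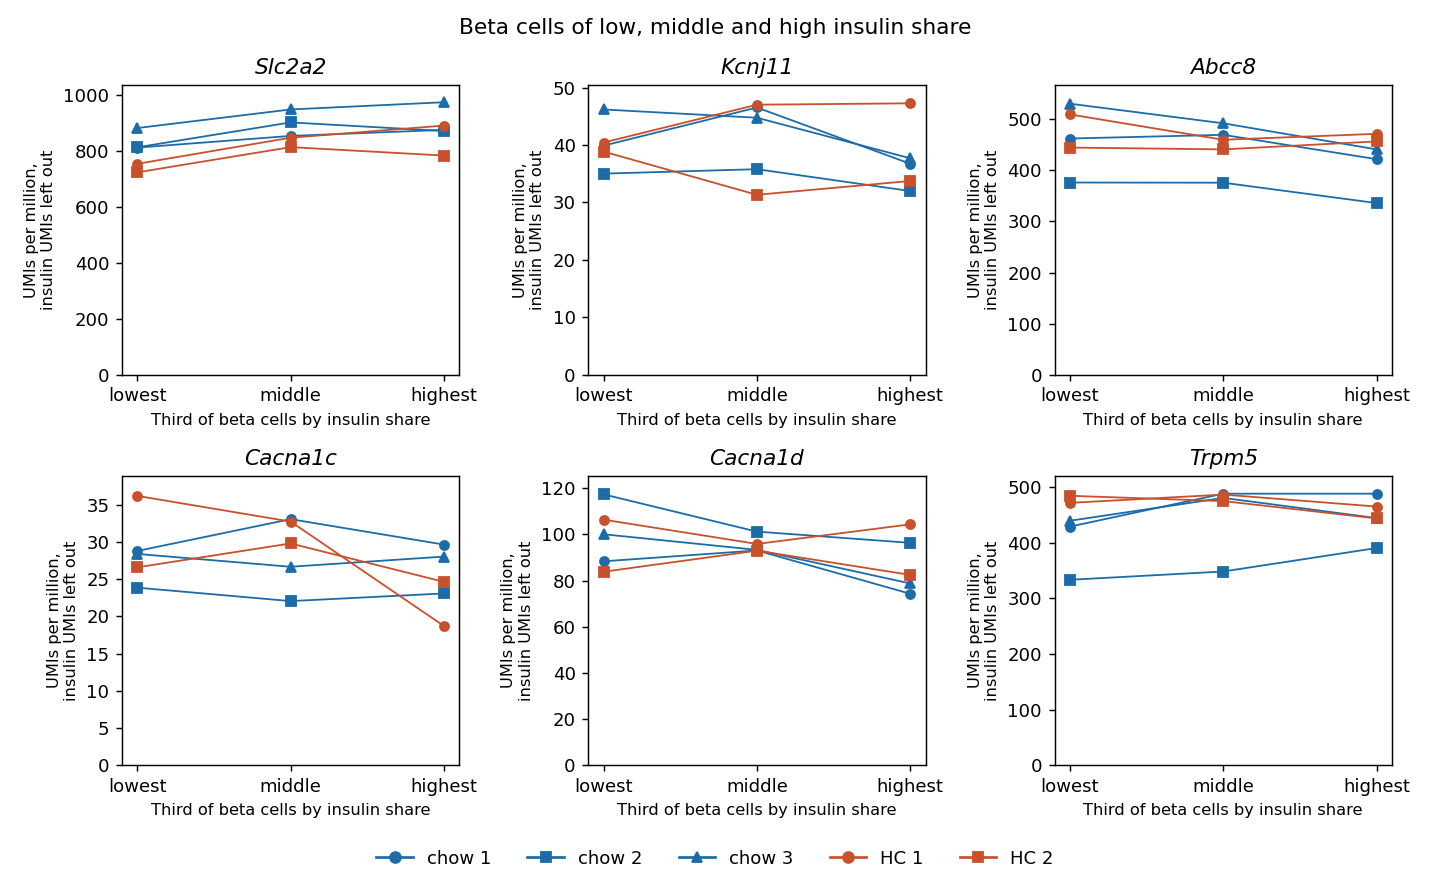
CPM with insulin UMIs left out (vertical, from 0) in beta cells of the lowest, middle and highest group by insulin share, 1 line per mouse. Slc2a2 ends higher than it starts in all 5 mice and Cacna1d ends lower in all 5.

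The comparison of HC with chow asks whether the diet shifted the genes of glucose sensing and excitation in these mice. In beta cells the 6 genes differed by -0.12 to 0.16 on the log2 scale, and 0 of 6 passed the test (edgeR quasi-likelihood test on counts summed per mouse, adjusted p under 0.05), in a comparison in which 0.00842% of 11876 genes were called. At an unadjusted p under 0.05 the count was also 0 of 6 (5.01% of all genes), and DESeq2 gave 0 at both thresholds. The mouse is the replicate. With 3 against 2 mice, the p-values set each difference against the spread between these few mice, estimated in part from the other genes.

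For Slc2a2 the beta level above gave a log2 HC over chow of -0.12 ± 0.0946 (SE; adjusted p = 0.957, edgeR). Between libraries of the same prefix the difference was -0.02 in FUN and -0.18 in SKY. After scaling by trimmed mean of M values (TMM) it was 285, 294 and 312 CPM in chow mice 1, 2 and 3 and 281 and 266 in HC mice 1 and 2. Both HC mice thus lay below all 3 chow mice, as they did in 10.1% of all genes tested. Abcc8 gave 0.11 ± 0.115 (adjusted p = 0.971, edgeR; 0.10 within FUN and 0.12 within SKY), and its ranges overlapped. Without chow mouse 2 it was 0.00503. Kcnj11 measured 15.5, 10.6 and 13.3 CPM in chow mice 1, 2 and 3 and 17.4 and 11.02 in HC mice 1 and 2, and gave 0.04 ± 0.137 (adjusted p = 0.999, edgeR). Within FUN it was 0.14 and within SKY -0.12, so the direction differed between the pairs of libraries.

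Cacna1c (0.07 ± 0.142, adjusted p = 0.995, edgeR) and Cacna1d (0.02 ± 0.117, adjusted p = 0.999, edgeR) had overlapping ranges in beta cells. Cacna1c was -0.06 within FUN and 0.13 within SKY, and Cacna1d 0.27 and -0.14. Trpm5 gave 0.16 ± 0.114 (adjusted p = 0.957, edgeR), with 0.02 within FUN and 0.25 within SKY, and 0.0501 without chow mouse 2. On the TMM scale Trpm5 was 158, 122 and 152 CPM in chow mice 1, 2 and 3 and 160 and 161 in HC mice 1 and 2, so each HC value exceeded each chow value, by a small margin, as it did in 10.7% of all genes. Slc2a2 and Trpm5 were the 2 of 6 whose groups did not overlap on this scale in beta cells, where 20.8% of all genes did not. The 2 genes with the beta-cell profile, Slc2a2 and Trpm5, therefore had values of opposite sign, and neither passed.

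Shares of beta cells with a UMI were compared at 2000 UMIs per cell. Slc2a2 was found in 42.5% ± 5.93 of beta cells of HC mice (SD, n = 2) and 43.9% ± 3.24 of chow mice (SD, n = 3), and the exact two-sided permutation test gave p = 0.7. Trpm5 was found in 27.7% ± 3.39 against 24.5% ± 5.26 (exact p = 0.4) and Abcc8 in 28.6% ± 4.65 against 25.6% ± 4.65 (exact p = 0.5). Cacna1d had 6.801% against 6.34%, Kcnj11 2.88% against 2.80% and Cacna1c 2.07% against 1.94%, with exact p of 0.7 to 0.9. Adjusted over the 6 genes every p was 0.9, and the smallest p this design allows is 0.1. Unthinned shares were 85.1% against 86.0% for Slc2a2 and 68.9% against 63.8% for Trpm5. The ratio of Abcc8 to Kcnj11 differed by 0.09 in log2 (exact two-sided permutation p = 0.6) and that of Cacna1d to Cacna1c by -0.05 (exact p = 0.9), both between diets in beta cells.

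In alpha cells the gene furthest from 0 relative to its error was Abcc8. It measured 164, 176 and 207 CPM in chow mice 1, 2 and 3 and 259 and 247 in HC mice 1 and 2. The groups did not overlap, which held for HC above chow in 11.3% of all genes tested and in either direction for 22.4%. The other 5 genes had overlapping groups in alpha cells. The log2 HC over chow was 0.38 ± 0.127 (SE; unadjusted p = 0.00762, adjusted p = 0.621, edgeR), so it did not pass, and 0 of 6 genes passed where 0.0746% of 10719 genes were called. It was the only one of the 6 with an unadjusted p under 0.05 in edgeR and in DESeq2 (6.79% of all genes in edgeR). The difference was 0.56 within FUN and 0.29 within SKY, and it stayed between 0.29 and 0.50 in each alternative.

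Kcnj11, the partner of Abcc8, gave 0.29 ± 0.165 in alpha cells (adjusted p = 0.758, edgeR), with 0.51 within FUN and 0.07 within SKY, and 0.11 without HC mouse 1. Cacna1d gave 0.12 ± 0.144 (adjusted p = 0.914, edgeR; 0.44 and -0.14) and Cacna1c 0.07 ± 0.232 (adjusted p = 0.972, edgeR; 0.32 and -0.38). For these genes the direction or size differed between the prefixes. Slc2a2 gave -0.53 ± 0.319 (adjusted p = 0.783, edgeR; -0.14 and -1.21) and Trpm5 -0.19 ± 0.523 (adjusted p = 0.966, edgeR; -0.08 and -0.79), both at levels near those computed from insulin UMIs. Alpha Slc2a2 was -1.36 without HC mouse 1 (unadjusted p = 0.00153, adjusted p = 0.494, edgeR) and -0.0589 without HC mouse 2, so its size rested on HC mouse 2. The insulin share of alpha cells was 0.687% in HC mouse 2, the lowest of the 5, and 1.24% to 1.71% in the others. Its part in these values was not tested.

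Whether the diet difference itself differed between beta and alpha cells was tested by an interaction with the mouse as a block. Abcc8 gave -0.26 ± 0.0985 (beta minus alpha, log2; unadjusted p = 0.0088, adjusted p = 0.539, edgeR), and the other 5 genes had adjusted p of 0.862 to 1. None of the 6 passed, where 0.214% of 12637 genes were called, and 1 of 6 had an unadjusted p under 0.05 (6.39% of all genes). A difference of the diet effect between the types was therefore not shown.

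In delta cells, which carried the highest KATP levels, Abcc8 gave a log2 HC over chow of 0.09 ± 0.143 and Kcnj11 -0.08 ± 0.190 (adjusted p = 1 for both to 3 decimals, edgeR). Within FUN and SKY they were 0.12 and 0.07 for Abcc8 and -0.09 and -0.02 for Kcnj11. Cacna1c (-0.02 ± 0.294; -0.24 and 0.14) and Cacna1d (0.02 ± 0.215; -0.04 and 0.09) were close to 0 with larger errors. Slc2a2 (0.27 ± 1.10; 0.61 and -1.09) and Trpm5 (0.21 ± 1.21; 0.38 and -1.33) had errors over 1, and their levels followed the insulin share of delta cells, 4.19%, 2.57% and 1.49% in chow mice 1, 2 and 3 and 5.98% and 0.858% in HC mice 1 and 2. On the TMM scale 0 of 6 genes had groups apart in delta cells, where 17.4% of all genes did, 8.66% with HC above and 8.74% with HC below. By edgeR 0 of 6 passed in delta cells and 0 had an unadjusted p under 0.05 (0.022% and 3.41% of 9108 genes), and DESeq2 also gave 0 and 0.

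**Figure D5:**
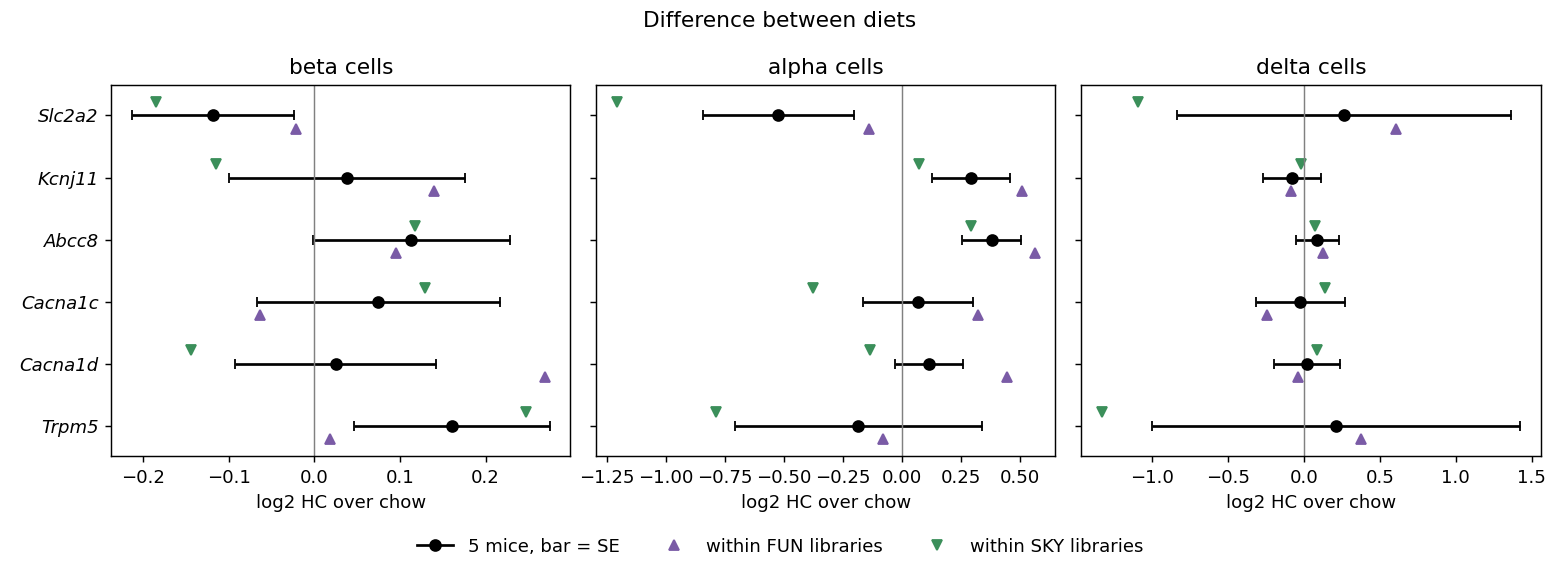
Log2 HC over chow of the 6 genes in beta, alpha and delta cells (black, 5 mice, bars are the standard error), with the difference within the FUN libraries (purple) and within the SKY libraries (green); horizontal axes differ between panels. Abcc8 in alpha cells lies at 0.38, with 0.56 and 0.29 within the prefixes, while Slc2a2 and Trpm5 in delta cells have errors over 1.

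The rest of the pathway was read from 6 lists holding 100 genes, of which 53 were tested in beta, 52 in alpha and 47 in delta cells. None passed in any of the 3 types in edgeR or DESeq2, and unadjusted p under 0.05 was reached by 3, 9 and 3 genes in edgeR and by 2, 2 and 0 in DESeq2. Over all genes that threshold was reached by 5.01%, 6.79% and 3.41% in edgeR. In DESeq2, after the same filter on low counts, it was reached by 222 of 11876 genes in beta cells. It was reached there by 194 of 10719 in alpha and 39 of 9108 in delta cells. DESeq2 gave an adjusted p to 8652 of the genes in beta cells. Of the glucose entry and phosphorylation list 9 of 16 genes were tested in beta cells, with 3 above 0 and a median log2 of -0.05, where the median of all genes tested was 0.00. Its smallest p belonged to Mpc2, a subunit of the mitochondrial pyruvate carrier (-0.13 ± 0.0885), then to G6pc2, the islet glucose-6-phosphatase (-0.11 ± 0.132), and Pfkfb2, which makes the activator of phosphofructokinase (0.10 ± 0.124).

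Potassium channel genes showed no common direction in beta cells, with 6 of 13 above 0 and a median of -0.01. Kcnn2, a small-conductance calcium-activated channel gene, gave 1.21 ± 0.395 (unadjusted p = 0.0082, adjusted p = 0.872, edgeR) at 0.391 to 1.22 CPM, followed by Kcnn1 (0.91 ± 0.455) and the tandem-pore channel gene Kcnk16 (0.17 ± 0.102). Calcium channel subunits other than the L-type pores had 5 of 6 above 0 and a median of 0.12, led by Cacna2d1 (0.14 ± 0.0945), Cacna1a (0.17 ± 0.133), the P/Q-type pore, and Cacnb2 (0.10 ± 0.130). Sodium channel genes had 3 of 5 above 0, and Nalcn, the sodium leak channel gene, gave 0.45 ± 0.159 (unadjusted p = 0.0133, adjusted p = 0.912, edgeR). Scn3a, a voltage-gated sodium channel gene, gave 0.41 ± 0.317.

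Among TRP channel genes 2 of 6 were above 0 in beta cells, with Trpm4, another calcium-activated cation channel and the closest relative of Trpm5, at -0.14 ± 0.128. Trpm7 was at -0.12 ± 0.122 and Trpc1 at -0.09 ± 0.163. Of genes for calcium stores, calcium extrusion and chloride 7 of 14 were above 0. Atp2a2, the calcium pump of the endoplasmic reticulum, gave 0.22 ± 0.0992 (unadjusted p = 0.0405, adjusted p = 0.957, edgeR), Lrrc8a, a volume-regulated anion channel subunit gene, -0.28 ± 0.157, and Slc8a1, a sodium-calcium exchanger gene, 0.25 ± 0.150. No gene named in these lists changed by the test.

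In alpha cells 7 of 7 tested calcium channel subunit genes were above 0, with a median log2 of 0.35. Over all genes tested 50% were above 0 and the median was 0.00. On the TMM scale the diet groups were apart, with HC higher, for 2 of the 7 calcium channel genes and for 11.3% of all genes tested. For the rest the groups overlapped, so the shared direction is one of group values and not of each mouse. Potassium channel genes had 9 of 12 above 0 (median 0.22) and sodium channel genes 5 of 7 (median 0.27). In delta cells these lists had 6 of 9 (median 0.23), 5 of 11 (-0.06) and 4 of 5 (0.15) above 0, where all genes had 49.5% above 0. Also in alpha cells, the glucose entry list had 6 of 11 above 0 (median 0.02), the calcium stores and chloride list 6 of 12 (median 0.03) and the TRP list 3 of 3 (median 0.19). The smallest p of all list genes in alpha cells belonged to G6pc2, at 15.4, 19.7 and 16.2 CPM on the TMM scale in chow mice 1, 2 and 3 and 9.28 and 10.99 in HC mice 1 and 2. Both HC mice lay below the chow mice, as they did in 11.1% of all genes tested. The log2 HC over chow was -0.77 ± 0.203 (unadjusted p = 0.00129, adjusted p = 0.418, edgeR). G6pc2 is among the beta-cell markers used for naming, and its carried-over level in alpha cells was not computed. Mpc2 gave -0.35 ± 0.123 (unadjusted p = 0.0114, adjusted p = 0.645, edgeR). None of the genes in these lists passed the test.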

How the data were processed

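The 5 libraries were deposited as matrices of UMI counts, whole numbers per gene and cell barcode, which the authors made with Cell Ranger 4.0.0 on the mouse build mm10, per the submitters' processing notes. The annotation release and the settings for calling cells are not given in the sources used here. The diet label set the groups, with 3 chow and 2 HC mice. The 6 genes and all lists were chosen with earlier results of these data known.

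Barcodes with at least 1000 UMIs, at least 500 genes and at most 15% mitochondrial UMIs were kept, 22758 cells in all. They were clustered with scanpy 1.11.5 (2000 variable genes, without the 6 genes, 30 components, 15 neighbours, Leiden resolution 1), giving 18 clusters. A cluster was named where at least 3 markers of 1 of 12 sets were among its 10 leading genes. They had to be at least 2 times as many as those of the next set. Clusters flagged for a hormone of another type stayed unnamed. The largest unnamed cluster held 1649 cells, with 4 beta markers, 3 of the next set and a flag for PP hormone. Unnamed clusters entered no comparison except the Ppy-led sub-cluster, described where a mouse had at least 10 cells of it. The doublet caller marked 14 cells (0.062%), too few to have worked, so no cell was removed by it, and leaving out the 6% with the highest scores was an alternative. Counts were summed per mouse and type and tested with edgeR 4.0.16 (quasi-likelihood, TMM, Benjamini-Hochberg over all genes tested, adjusted p under 0.05), after a filter on low counts that all 6 genes passed in beta, alpha and delta cells. DESeq2 1.42.0 was an alternative, as were the filter, cell thresholds, clustering, scaling, prefix, age, grouping by title and leaving out each mouse. Leaving the hormone genes out before scaling, and the other scales of level, were chosen after seeing the data. Levels are UMIs per 1000000 of a type's summed UMIs (CPM). Shares used cells thinned to 2000 UMIs, without cells below that depth, and exact permutation tests over mice. Named genes are the 6, the 3 of smallest p in beta cells of each list with any that passed, and the 3 of highest correlation with each of the 6. One gene that this rule names is not reported here. The count scripts were tested on simulated data.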

Additional observations from a re-analysis of the deposited data

How the results depend on the processing

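No paired analysis was possible because the replicate numbers only follow the order of deposit and tie no chow mouse to an HC mouse. With 1 HC mouse left out, the lone HC sample is assumed to vary like the others. None of the 6 genes passed under any alternative run; the lowest adjusted p was 0.630 in beta, 0.263 in alpha, 0.708 in delta cells and 0.288 for beta minus alpha. Of the alternatives, 87 of 96 kept the direction in beta cells, 84 of 93 in alpha and 63 of 85 in delta cells, 82 of 90 for beta minus alpha and 69 of 78 for shares of cells. In every value below that changed direction, the cause was not tested.

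With age as a term Kcnj11 was -0.10 in beta and 0.0814 in delta cells, Cacna1c -0.0516 in beta and -0.26 in alpha cells, Slc2a2 -0.86 and Trpm5 -1.23 in delta cells. With prefix as a term Kcnj11 was -0.00181 in beta, Cacna1c -0.0342 in alpha, Slc2a2 -0.0215 and Trpm5 -0.12 in delta cells. Prefix, age and diet could not all be fitted together. Grouped by title, alpha Slc2a2 was 0.22 and Trpm5 0.66, delta Cacna1d -0.12, beta minus alpha -0.27 for Slc2a2, -0.41 for Cacna1c and -0.57 for Trpm5, the Slc2a2 share difference 4.19 points, and the log2 ratio difference -0.10 for Abcc8 to Kcnj11 and 0.0441 for Cacna1d to Cacna1c. With the stricter cell filter Cacna1c was -0.00673 in alpha and 0.30 in delta cells. Without the highest doublet scores, delta Cacna1c was 0.00224 and Cacna1d -0.0311; with other hormones under 5%, delta Cacna1d was -0.12. When the 6 genes were allowed among the clustering genes, 0 of them were picked, so this run could not show an effect of their use. In that run delta Cacna1c was 0.0223 and Trpm5 -0.0466, and Cacna1c beta minus alpha -0.0120.

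Genes called, 1 in beta, 8 in alpha, 2 in delta cells and 27 for beta minus alpha, became 11, 2 and 1 in DESeq2 and 50, 33 and 6 with no filter on low counts for the 3 types. Beta cells had 17 with prefix and 11 with age as a term, and 4 grouped by title, where alpha cells had 35 and beta minus alpha 13. Alpha cells had 4 at resolution 0.5, and beta minus alpha 8 with the stricter filter. At resolution 0.5 no delta cluster could be named, so delta cells could not be fitted, and 2 genes were highest in beta cells; as CPM without hormone genes and as UMIs per cell it was 4 and 4. In a few alternatives Slc2a2 or Trpm5 fell below the low-count filter and gave no value.

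Leaving out each mouse in turn, beta Kcnj11 ranged from -0.15 to 0.20, Cacna1c from -0.0304 to 0.17, Cacna1d from -0.0827 to 0.12, Abcc8 from 0.00503 to 0.20 and Trpm5 from 0.0501 to 0.23; alpha Cacna1c from -0.43 to 0.40, Cacna1d from -0.0496 to 0.25, Trpm5 from -1.36 to 0.37, Slc2a2 from -1.36 to -0.0589 and Kcnj11 from 0.11 to 0.44; delta Slc2a2 from -1.96 to 1.16, Kcnj11 from -0.24 to 0.0600, Abcc8 from -0.0380 to 0.22, Cacna1c from -0.12 to 0.0728, Cacna1d from -0.0820 to 0.11 and Trpm5 from -2.74 to 1.18. Beta minus alpha ranged from -0.0268 to 1.22 for Slc2a2, -0.29 to 0.47 for Cacna1c and -0.23 to 1.55 for Trpm5. Share differences ranged from -5.59 to 2.79 points for Slc2a2, -0.516 to 0.673 for Kcnj11, -0.196 to 6.38 for Abcc8, -0.102 to 0.422 for Cacna1c and -0.750 to 1.66 for Cacna1d. The ratio differences ranged from -0.0455 to 0.23 for Abcc8 to Kcnj11 and -0.21 to 0.15 for Cacna1d to Cacna1c. Genes called ranged from 0 to 10 in beta, 1 to 49 in alpha, 0 to 2 in delta cells and 14 to 32 for beta minus alpha. Without chow mouse 1, 2 or 3 and HC mouse 1 or 2 there were 9, 2, 0, 2 and 10 in beta cells and 3, 1, 2, 4 and 49 in alpha cells.

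Depth limits Kcnj11 and Cacna1c, with 1285 and 890 UMIs over all beta cells, and the small types, where single mice gave 0 UMIs of some of the genes.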
